A study of Mus musculus with 24 samples.

Results

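The genes described here are 37 genes that charge tRNAs with amino acids, make certain amino acids and folate intermediates, or belong to the transcriptional response to amino acid shortage, out of 38215 genes in the deposited table. They were chosen by name, with earlier results of these data known. They are 20 cytosolic aminoacyl-tRNA synthetases, Atf4 with 5 of its response genes (Chac1, Ddit4, Sesn2, Slc7a11 and Trib3), and 11 synthesis enzymes. The synthesis enzymes serve asparagine, serine and proline synthesis and the interconversion of folate intermediates. Counts set beside the shares of all genes are therefore not independent of these data. All 37 symbols were found, each on 1 row. They were measured by bulk sequencing of poly(A) RNA in 24 libraries of mouse natural killer (NK) cells, 4 in each of 6 groups. The groups were WT or FcRγ KO cells, labelled as naive and spleen-derived, as IL-15 treated and spleen-derived, or as from tumour-bearing lung. No other allele or agent is named in the labels. Whether IL-15 was given to mice or to cells in culture is not stated, and any culture cannot be told apart from IL-15. Below, IL-15 spleen stands for the IL-15-treated spleen-derived cells. FcRγ is the signalling adaptor encoded by Fcer1g. A group's 4 libraries are named as biological replicates, without a statement that each is from its own mouse, so the tests measure only the spread between these libraries. The origin of the KO, the route and dose of IL-15, the tumour, and the strain, age and number of mice are not stated in the sources used here.

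Aminoacyl-tRNA synthetases join each amino acid to its tRNA, and so supply the ribosome. When charged tRNA runs short, the kinase GCN2 (Eif2ak4) phosphorylates the initiation factor eIF2α, general translation falls and the mRNA of ATF4 is translated more. ATF4 then binds composite elements near target genes and raises many synthetases, amino acid transporters and enzymes of asparagine and serine synthesis. Other eIF2α kinases answer misfolded protein (PERK, Eif2ak3) and double-stranded RNA (PKR, Eif2ak2), and activated lymphocytes use the serine and folate enzymes for nucleotide synthesis. Because ATF4 is controlled in large part at translation, its mRNA level is not a measure of its protein.

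Promoter sequences show which of the 37 genes carry the letters of an ATF4-type element close to their start. RefSeq promoters (GRCm38.p6, 250 bases before to 50 after the start) matched 30 of the 37 genes. The composite element TGATGNAA, searched on both strands, was present in 10 of these 30 promoters (33.3%), against 3.97% of 32851 promoters of the same length. The 10 genes were Aars, Asns, Chac1, Gars, Iars, Pycr1, Slc7a11, Tars, Trib3 and Yars. The E-box CACGTG, which is bound by MYC among other factors and reads the same on both strands, was present in 5 of 30 (16.7%), against 7.15% of all. It was found in Aars, Aldh18a1, Farsb, Iars and Tars, so Aars, Iars and Tars carried both. In no promoter of these genes did a TGATGNAA match share bases with a CACGTG match, and a match is a match of letters only. The following stretches lie upstream of the start, are written on the gene's strand, and have the match in capitals (TGATGNAA, or its reverse complement for a match on the other strand). They are shown because these genes, with the same letters near their start, had very different RNA levels and changes.
Asns (chr6:7693214-7693243, minus strand): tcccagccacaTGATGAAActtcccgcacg
Chac1 (chr2:119351038-119351067, plus strand): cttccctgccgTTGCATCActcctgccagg
Slc7a11 (chr3:50443652-50443680, minus strand): cTGATGCAAacctggagaatTTGCATCAt
Pycr1 (chr11:120643833-120643862, minus strand): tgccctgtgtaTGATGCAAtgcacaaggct
Gars (chr6:55037960-55037989, plus strand): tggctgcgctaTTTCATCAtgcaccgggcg
Tars (chr15:11399659-11399684, minus strand): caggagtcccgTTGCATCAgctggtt
The Asns match lay 23 to 16 bases before the start and that of Chac1 193 to 186 bases before it, while Slc7a11 held 2 matches in opposite orientation within 29 printed bases.

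Totals per library ran from 9.68 M to 32.1 M counts, and KO naive replicate 1 (9.68 M) and WT lung replicate 1 (9.77 M) were the shallow ones. Fcer1g stood at 730 ± 78.8 CPM (counts scaled to library totals, mean ± SD, n = 4) in naive WT and 3.77 ± 2.37 in naive KO, with a like gap in the other states. Summed NK cell markers were lower under IL-15 (7207 to 8831 CPM) than in naive spleen (15350 to 21630) and lung (11570 to 16650). Summed markers of macrophages and monocytes (6 of 7 in the table) stood at 6.79 to 17.3 CPM in naive spleen, 17.98 to 27.4 under IL-15, 57.5 to 130 in WT lung and 150 to 624 in KO lung. Summed lung epithelium markers reached 392 CPM in KO lung, and T cell markers 72.1 CPM in naive KO, while B cell markers stood at no more than 24.8 CPM. Mitochondrial genes took 0.81 to 2.82% of counts under IL-15, 3.17 to 6.14% in WT lung and 8.49 to 10.73% in KO lung. In naive spleen they took 4.89 to 6.31% in WT and 1.18, 9.28, 4.19 and 8.74% in KO replicates 1 to 4, the first being the shallow library. The part of these shifts in the results below was not tested, and in bulk RNA fewer cells of a type and less RNA per cell cannot be told apart.

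In naive WT spleen the 37 genes covered a wide range of levels. Per kilobase of transcript, Ddit4, which encodes the mTORC1 inhibitor REDD1, stood at 69.5 ± 17.7 CPM per kb, Atf4 at 62.9 ± 7.92 and the seryl-tRNA synthetase Sars at 61.2 ± 1.95. These leading levels did not differ beyond their spread. Dars, Kars, Nars and Wars followed at 48.0 to 49.4 CPM per kb, a group whose spreads also overlapped. Lars (12.0) and Iars (8.85) were lower than most other synthetases, and Cars was the lowest synthetase at 3.32 ± 0.381. At the other end were Trib3 (0.349), Asns (0.109), Slc7a11 (0.107), Pycr1 (0.0675) and Chac1 (0.0654 CPM per kb), which overlapped one another. Chac1 had 0 to 11 counts in each library, did not pass the filter on low counts and was not tested, so 36 of the 37 genes were tested.

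IL-15 was followed by higher RNA of 8 of the 11 synthesis enzymes in WT and 7 in KO, among them Phgdh, Psat1 and the 5 folate enzymes (Shmt1, Shmt2, Mthfd1, Mthfd1l and Mthfd2), and of 6 of the 20 synthetases in each genotype. Psph and Aldh18a1 fell in WT. Here a gene passed where its adjusted p from edgeR's quasi-likelihood test was under 0.05. In WT cells 15 of 36 genes rose and 6 fell, against 26.4 and 26% of the 13344 genes tested. In KO cells 14 rose and 2 fell, against 20.7 and 21%. The median log2 change was 0.13 over the 36 genes in WT and 0.25 in KO, and −0.01 over all genes in both. By role, 8 of 11 synthesis enzymes rose and 2 fell in WT, 6 of 20 synthetases rose and 3 fell (near the shares over all genes or below them), and of the 5 tested genes of the ATF4 group 1 rose and 1 fell. In KO these counts were 7 and 0, 6 and 2, and 1 and 0.

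Mthfd2, the mitochondrial folate dehydrogenase of proliferating cells, stood at 6.88, 5.29, 4.24 and 6.40 CPM in the naive WT libraries and at 26.3, 29.7, 25.1 and 22.1 CPM under IL-15. The groups did not overlap, and the log2 change was 2.09 ± 0.18 (± standard error) with an adjusted p of 2.05e-08. In KO cells Mthfd2 went from 6.76 ± 1.41 to 28.7 ± 0.906 CPM, a log2 change of 2.01. Shmt1, the cytosolic serine hydroxymethyltransferase, stood at 1.44 to 5.14 CPM in naive WT and 17.4 to 20.1 CPM under IL-15, with log2 changes of 2.36 ± 0.28 in WT and 2.10 ± 0.28 in KO. The cytosolic trifunctional enzyme Mthfd1 rose by 1.36 in WT and 1.04 in KO, and its mitochondrial relative Mthfd1l by 1.04 and 0.63. The serine synthesis enzymes Phgdh (0.87 and 0.79) and Psat1 (0.52 and 1.04) and the mitochondrial Shmt2 (0.54 and 0.51) also rose in both genotypes. Psph, which completes serine synthesis, went the other way in WT, from 36.6 ± 3.23 to 26.4 ± 3.39 CPM (log2 change −0.55, adjusted p 0.0012), and did not pass in KO (−0.13). The proline enzyme Aldh18a1 fell in WT (−0.48) and stood at −0.29 in KO, with an adjusted p of 0.0524. Phgdh was the only one of the 37 genes with counts per gene that were not whole, so the estimate shared some of its reads with other genes. The part of this sharing in its change was not tested.

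**Figure D1:**
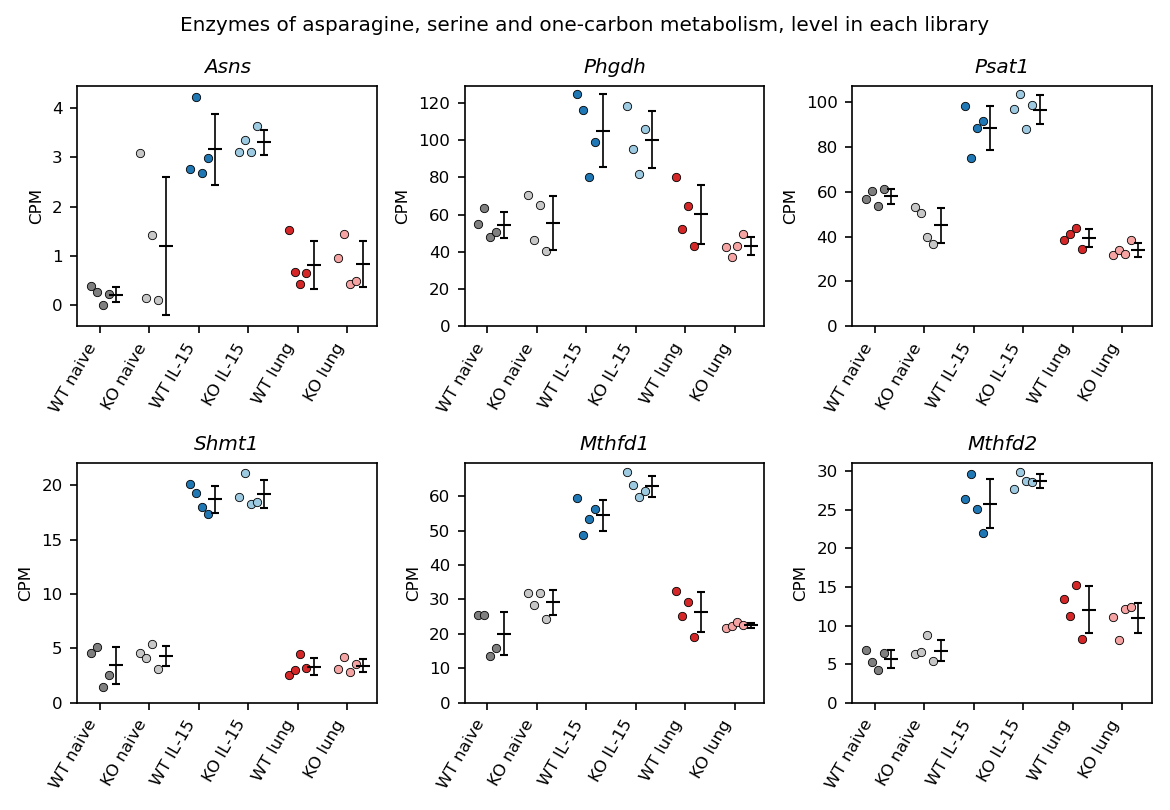
Level in CPM (linear axis) of 6 enzymes of asparagine, serine and folate metabolism in each of the 24 libraries. Points are libraries and bars are mean ± SD of 4. Shmt1 stood at 17.4 to 21.1 CPM in the 8 IL-15 libraries and at or below 5.36 CPM in the other 16.

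Asns, which makes asparagine and is a standard target of ATF4, stood at 0.389, 0.262, 0 and 0.231 CPM in naive WT and at 2.76, 4.23, 2.69 and 2.98 CPM under IL-15. No library of the groups overlapped, and the log2 change was 3.72 ± 0.84 (adjusted p 0.00106). The large fold sits on a low level: 0 to 10 counts in each naive WT library and 89 to 100 under IL-15. In naive KO, Asns was spread from 0.119 to 3.09 CPM, with KO naive replicate 1 the highest, and the change to 3.11 to 3.64 CPM under IL-15 did not pass (1.49 ± 0.75, adjusted p 0.12). The difference between genotypes in this response did not pass either (−2.23 ± 1.09, adjusted p 0.318).

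Among synthetases, Eprs, which charges glutamate and proline tRNAs, stood at 81.7, 62.4, 54.8 and 55.6 CPM in naive WT and at 151, 152, 147 and 148 CPM under IL-15. All IL-15 libraries were above all naive ones, and the log2 change was 1.15 ± 0.11 in WT and 0.59 ± 0.11 in KO (adjusted p 1.34e-07 and 0.000347). Vars, the valyl-tRNA synthetase, rose from 141 ± 16.1 to 318 ± 11.1 CPM in WT (1.08) and by 0.59 in KO. Cars (cysteine) rose by 0.92 and 1.06 and Iars (isoleucine) by 0.69 and 0.73. Lars (leucine) rose in WT (0.51) and stood at −0.07 in KO, a difference between genotypes with an adjusted p of 0.0879. Kars (lysine) rose in KO (0.49, or 0.33 without KO naive replicate 1, still past the threshold) and stood at 0.29 in WT. The difference between genotypes in the Kars response did not pass (0.20 ± 0.21, adjusted p 0.679). Qars passed in KO (0.26) but not without KO naive replicate 1 or 4 or KO IL-15 replicate 2, 3 or 4, where its adjusted p reached 0.0933. Aars passed in WT (0.43) but not without WT naive replicate 2, 3 or 4 or WT IL-15 replicate 1 or 2, where its adjusted p reached 0.0935. With an offset for gene length and GC content, the change of Eprs was 0.57 in WT and 0.35 in KO (adjusted p 0.00512 and 0.075), and that of Aars in WT was 0.05.

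Other synthetases fell. Sars stood at 213 to 228 CPM in naive WT and 118 to 170 CPM under IL-15, with no overlap and a log2 change of −0.65 ± 0.11, and fell by 0.50 in KO. Wars, the tryptophanyl-tRNA synthetase, which is also induced by interferon, fell by 0.57 in WT and by 0.34 in KO. Mars fell in WT (−0.31, adjusted p 0.0139), though not without WT IL-15 replicate 4 (adjusted p 0.0519). The other synthetases (Dars, Farsa, Farsb, Gars, Hars, Nars, Rars, Tars and Yars) did not pass in either genotype.

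**Figure D2:**
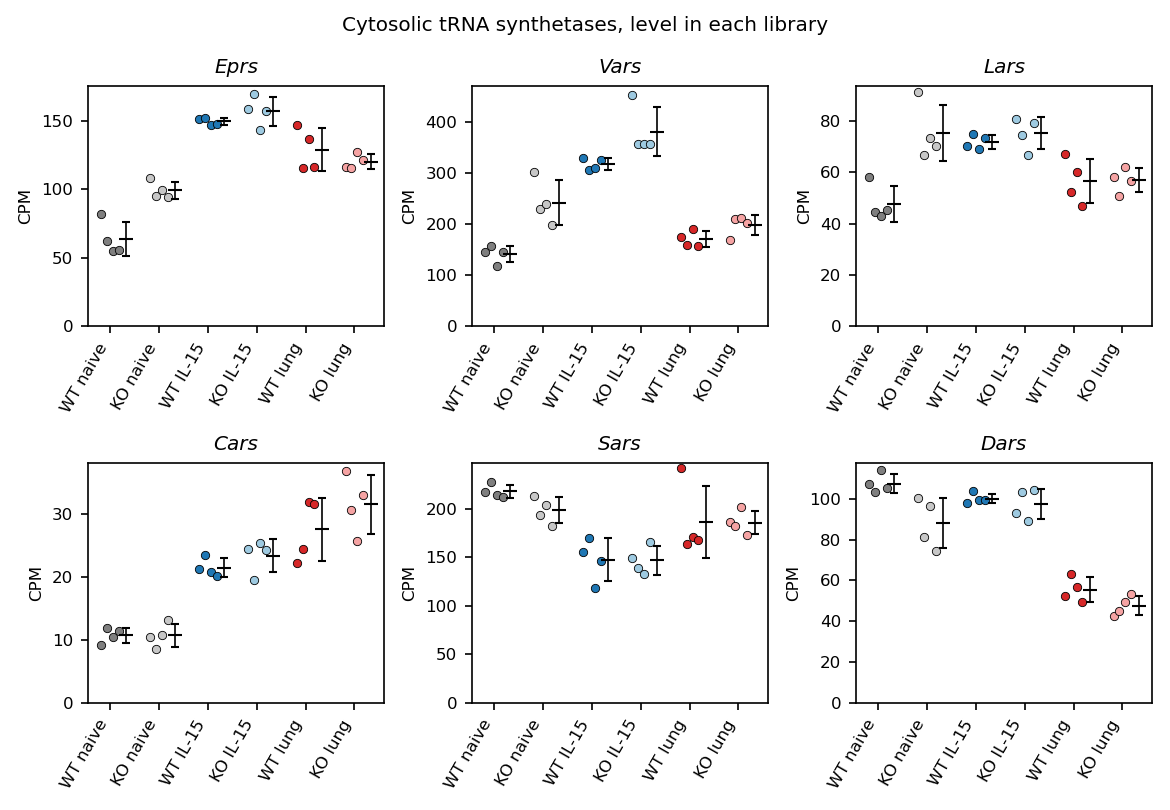
Level in CPM (linear axis) of 6 cytosolic tRNA synthetases in each of the 24 libraries. Points are libraries and bars are mean ± SD of 4. Eprs, Vars and Lars were lower in naive WT than in naive KO, Sars had its lowest means under IL-15 and every lung library of Dars was below every spleen library.

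Atf4 RNA itself stood at 128, 104, 97.6 and 104 CPM in naive WT and at 196, 225, 173 and 178 CPM under IL-15. The groups did not overlap and the log2 change was 0.75 ± 0.12 (adjusted p 5.5e-05), with 0.41 ± 0.12 in KO (adjusted p 0.013). Ddit4 fell in WT, from 80.9 to 154 CPM to 59.1 to 75.0 CPM (log2 change −0.92 ± 0.17), and stood at −0.10 in KO, where it was already low in naive cells. Trib3, a pseudokinase induced by ATF4, had log2 changes of 1.70 ± 0.80 and 1.89 ± 0.81 that did not pass (adjusted p 0.0836 and 0.0687), on levels of at most 4.99 CPM. Sesn2, a stress-induced inhibitor of mTORC1, and the cystine transporter Slc7a11 did not pass in either genotype.

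Tumour-bearing lung gave a different picture: Atf4 RNA was several times higher while most synthetases and synthesis enzymes were not. Atf4 stood at 574, 515, 559 and 536 CPM in WT lung and at 477, 507, 549 and 531 CPM in KO lung. Every lung library was above every spleen library, naive or IL-15-treated. The log2 change against naive spleen was 2.33 ± 0.12 in WT and 1.94 ± 0.11 in KO (adjusted p 3.84e-14 and 1.34e-12), and against IL-15 spleen 1.499 ± 0.11 and 1.47 ± 0.11. Per kilobase, Atf4 reached 317 ± 15.1 CPM in WT lung, ahead of Kars at 55.5 ± 7.76. Lung and spleen differ in organ, and tumour, organ and any difference in how cells were isolated cannot be told apart in this design. The macrophage markers given above were also higher in lung (57.5 to 624 CPM summed) than in naive spleen (at most 17.3 CPM).

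Of the 36 genes, 6 were higher and 8 lower in lung than in naive spleen in WT, against 29.2 and 20% of 14275 genes tested. In KO 6 were higher and 9 lower, against 24.3 and 18.1%. Without KO lung replicate 3 the count of lower genes in KO was 5. Low response genes with an ATF4-type element did not pass: Asns was at 0.436 to 1.53 CPM in WT lung (log2 change 1.79 ± 0.80, adjusted p 0.0681), Trib3 at 0.846 to 1.88 CPM (0.98 ± 0.76) and Slc7a11 at 0.769 to 1.60 CPM (0.33 ± 1.03). Their changes in KO did not pass either, with Asns at −0.44 ± 0.74, Trib3 at 0.11 ± 0.76 and Slc7a11 at 0.87 ± 1.03. Asns was higher in every WT lung library (11 to 17 counts) than in every naive WT library (0 to 10 counts), while Trib3 and Slc7a11 overlapped. At such low counts a test that did not pass cannot show that the RNA was unchanged. Pycr1, also low and with the element, did not pass in WT (1.66 ± 1.00) or KO (0.60 ± 1.07). Chac1 had 1 count in WT lung replicate 1 and 0 counts in the other 7 lung libraries. Beside Atf4, Cars rose from 10.7 ± 1.23 to 27.5 ± 4.96 CPM in WT (1.37 ± 0.15) and by 1.56 in KO. Mthfd2 rose by 1.07 and 0.69, to 12.0 ± 3.04 and 10.9 ± 1.93 CPM, less than the IL-15 level. Eprs rose from 63.6 ± 12.5 to 129 ± 15.5 CPM in WT (1.02 ± 0.11), while in KO its change of 0.28 had an adjusted p of 0.0467 and did not pass without any 1 of the libraries except KO naive replicate 1. Farsa (0.34 and 0.44) and Sesn2 (0.41 and 0.74) rose slightly, though in WT Sesn2 did not pass without WT naive replicate 1 or 2 or WT lung replicate 3 or 4 (adjusted p up to 0.0971) and its direction turned with the length and GC offset (−0.04). With that offset Farsa in WT stood at 0.11 (adjusted p 0.395) and Eprs at 0.63 in WT and 0.09 in KO.

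Among genes that were lower in lung, Dars, the aspartyl-tRNA synthetase, stood at 107, 104, 114 and 105 CPM in naive WT and at 52.2, 63.3, 56.9 and 49.3 CPM in WT lung. The groups did not overlap, and the log2 changes were −0.96 ± 0.11 in WT and −0.89 ± 0.11 in KO, or −0.42 and −0.57 with the length and GC offset. Ddit4 fell by 1.16 in WT and by 0.57 in KO, to 54.5 ± 4.06 and 51.0 ± 4.38 CPM. Psat1 (−0.55 and −0.39), Psph (−0.56 and −0.44) and Aldh18a1 (−0.45 and −0.37) were lower in both genotypes. In KO, Psph did not pass without KO lung replicate 2 (adjusted p 0.0619) and Aldh18a1 did not pass without KO naive replicate 2 or KO lung replicate 3 (up to 0.0656). With the length and GC offset, Psat1 stood at −0.34 in WT and at −0.20 in KO, where it did not pass (adjusted p 0.171). Farsb (−0.35 in both genotypes) and, in WT, Rars (−0.35) also fell, but both turned to above 0 in WT with the length and GC offset (0.06 and 0.12). Qars in WT (−0.20), and Hars (−0.31), Lars (−0.41) and Mthfd1l (−0.35) in KO, completed the lower genes. With the length and GC offset, Farsb (−0.09), Hars (−0.19), Lars (−0.23) and Mthfd1l (−0.30) did not pass in KO (adjusted p 0.56, 0.175, 0.149 and 0.0516). Among the last of these genes, calls were lost by leaving out 1 library for Farsb (WT naive replicate 1 or WT lung replicate 2, and in KO lung replicate 1 or 3), Rars (WT naive replicate 3), Qars (any WT library but naive replicate 1 and lung replicate 4), Hars (KO naive replicate 1 or 2 or KO lung replicate 2, 3 or 4) and Mthfd1l (KO naive replicate 2 or 3 or KO lung replicate 2, 3 or 4), with adjusted p values up to 0.0766, 0.0505, 0.134, 0.101 and 0.107.

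**Figure D3:**
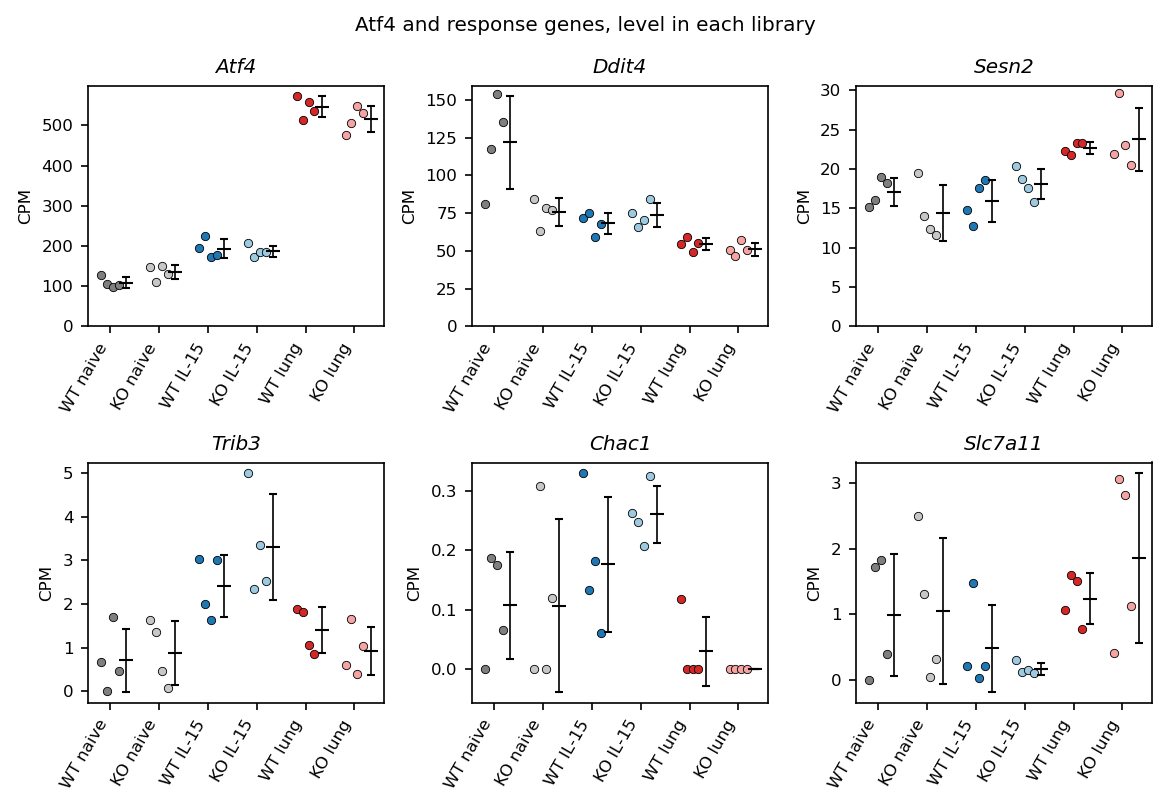
Level in CPM (linear axis, scale differs by panel) of Atf4 and 5 response genes in each of the 24 libraries. Points are libraries and bars are mean ± SD of 4. Atf4 stood at 477 to 574 CPM in the 8 lung libraries and at or below 225 CPM elsewhere, while Trib3, Chac1 and Slc7a11 stayed at or below 4.99 CPM.

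Set directly against IL-15 spleen, 6 genes were higher and 16 lower in WT lung (23.8 and 20.6% of all genes), and 7 higher and 20 lower in KO lung (23.3 and 20.5%). The higher counts were not firm: they were 3 in WT without WT IL-15 replicate 3 or 4, and in KO 3 without KO IL-15 replicate 2 and 4 without KO IL-15 replicate 3 or 4 or KO lung replicate 1 or 3. In WT the genes lower in lung included 8 of 11 synthesis enzymes, led by Shmt1 (−2.47 ± 0.28), Asns (−2.01 ± 0.75), Psat1 (−1.16), Mthfd2 (−1.10), Mthfd1l (−1.09), Mthfd1 (−1.05) and Phgdh (−0.81). Asns did not pass without WT IL-15 replicate 2 or WT lung replicate 2, 3 or 4 (adjusted p up to 0.0858). In KO it was 9 of 11, and the median over the 11 was −1.05 in WT and −1.28 in KO against 0.02 and 0.03 over all genes. Of the 20 synthetases, 8 were lower and 4 higher in WT lung, and 10 were lower and 4 higher in KO lung. The lower ones included Vars (−0.90 in WT and −0.94 in KO) and Dars (−0.85 and −1.03), and the higher ones Wars (0.43 and 0.28). Slc7a11 was higher in KO lung (0.399 to 3.06 CPM) than in KO IL-15 spleen (0.0974 to 0.300 CPM), a log2 change of 3.45 ± 1.14 with an adjusted p of 0.0165. Its change in WT had the same direction and did not pass (1.40 ± 1.06, adjusted p 0.3). Nor did Slc7a11 pass between KO and WT in lung (0.58 ± 0.60). Slc7a11 in KO IL-15 libraries rested on 3 to 8 counts each. The comparisons of lung with naive and with IL-15 spleen share the lung libraries. Against IL-15 spleen the IL-15 treatment differs as well as organ and tumour, and these cannot be told apart.

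In naive spleen 5 of 36 genes were higher in KO than in WT and 4 lower, near the shares of all genes (11.1 and 9.22%), and none passed in the other states, where few genes of any kind did. Summed T cell markers (44.7 to 72.1 CPM) and endothelium markers (96.3 to 123.5 CPM) were higher in every naive KO library than in naive WT (22.3 to 30.6 and 53.1 to 74.8 CPM), and NK cell markers were lower (15350 to 18140 against 19880 to 21630 CPM). In naive KO the endothelium sum was Pecam1 alone, with Cdh5, Kdr and Cldn5 at 0, and of the 8 T cell markers Cd8b1 was at 0. The part of these marker differences in the values that follow was not tested. Vars stood at 145, 157, 119 and 145 CPM in WT and at 302, 229, 240 and 198 CPM in KO, with KO naive replicate 1 the highest. The groups did not overlap, and the log2 difference was 0.75 ± 0.12 (adjusted p 0.000608), 0.64 without KO naive replicate 1 and 0.34 with the length and GC offset, still past the threshold. Lars stood at 58.2, 44.6, 43.1 and 45.3 CPM in WT and 91.1, 66.7, 73.5 and 70.2 CPM in KO (0.63 ± 0.12, adjusted p 0.00161). Eprs stood at 54.8 to 81.7 CPM in WT and 94.6 to 108 CPM in KO (0.61 ± 0.11, adjusted p 0.00136), a call that was lost with the length and GC offset (0.28, adjusted p 0.256). Mthfd1l was higher by 0.51 ± 0.11, from 49.4 ± 4.63 to 71.8 ± 5.99 CPM. Mthfd1 was higher by 0.51 but did not pass without WT naive replicate 3 or 4 or KO naive replicate 1, 2 or 3 (adjusted p up to 0.145), nor with the offset (0.43, adjusted p 0.0693). Eprs, Dars and Farsb lie on chromosome 1, as does Fcer1g, at 14.1, 42.8 and 92.7 Mb from it.

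Ddit4 was the gene with the largest lower value in naive KO, at 84.5, 62.8, 78.5 and 77.1 CPM against 80.9, 118, 154 and 135 CPM in WT. WT naive replicate 1 overlapped the KO libraries, and the log2 difference was −0.72 ± 0.16 (adjusted p 0.00566). Psph (−0.45), Psat1 (−0.40) and Dars (−0.31) were also lower, but the count of 4 lower genes fell to 2 without WT naive replicate 2, 3 or 4 and to 1 without KO naive replicate 4. Psph, for example, did not pass without WT naive replicate 3 or KO naive replicate 4 (adjusted p up to 0.0569). Psat1 did not pass without WT naive replicate 2 or 4 or KO naive replicate 3 or 4 (up to 0.0794), and Dars without any WT naive library or KO naive replicate 2 or 4 (up to 0.123). With the length and GC offset Dars stood at −0.03 (adjusted p 0.909) and Psat1 at −0.33 (adjusted p 0.0622). Atf4 did not pass (0.28 ± 0.12, adjusted p 0.113), with 97.6 to 128 CPM in WT and 111 to 149 CPM in KO. Asns had a log2 difference of 2.28 ± 0.84 and an adjusted p of 0.0609.

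Under IL-15 no gene of the 36 passed between KO and WT (0.0824% of all genes were higher and 0.0525% lower). Of the 36, 1 had an unadjusted p under 0.05, against 211 of all 13344 genes tested. The estimates for the 20 synthetases ran from −0.12 to 0.25. Vars stood at 307 to 329 CPM in WT and 356 to 454 CPM in KO without overlap, yet its difference of 0.25 ± 0.12 had an adjusted p of 1. In lung no gene of the 36 passed either (0.305% of all genes higher, 0.32% lower). Only Phgdh had an unadjusted p under 0.05 (−0.47 ± 0.17, adjusted p 0.337), against 1523 of all 13129 genes tested. The synthetases ran from −0.22 to 0.22. DESeq2 also called none in both states.

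The difference between states in the KO effect was tested as an interaction. Between IL-15 and naive no gene of the 36 passed in edgeR (0.472% of all genes were higher and 1.06% lower). Of the 36, 7 had an unadjusted p under 0.05, against 2191 of all 13344 genes tested. Among them Ddit4 (0.82 ± 0.23), Eprs (−0.56 ± 0.16) and Lars (−0.58 ± 0.17) had adjusted p values of 0.0813, 0.0824 and 0.0879. DESeq2 called 1 higher and 2 lower, and without WT naive replicate 1 the edgeR counts were 1 and 2, and without WT IL-15 replicate 2 they were 1 and 0. Between lung and naive, Eprs alone passed: its KO effect was lower in lung by 0.74 ± 0.16 (adjusted p 0.0185), against 0.168% of all genes higher and 0.981% lower. That call was lost without WT naive replicate 3 (−0.68, adjusted p 0.0509) and with the length and GC offset (−0.54, adjusted p 0.247). Without WT naive replicate 1 there were 3 lower genes and 1 higher, and without WT lung replicate 1 or 4 there were 2 lower.

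**Figure D4:**
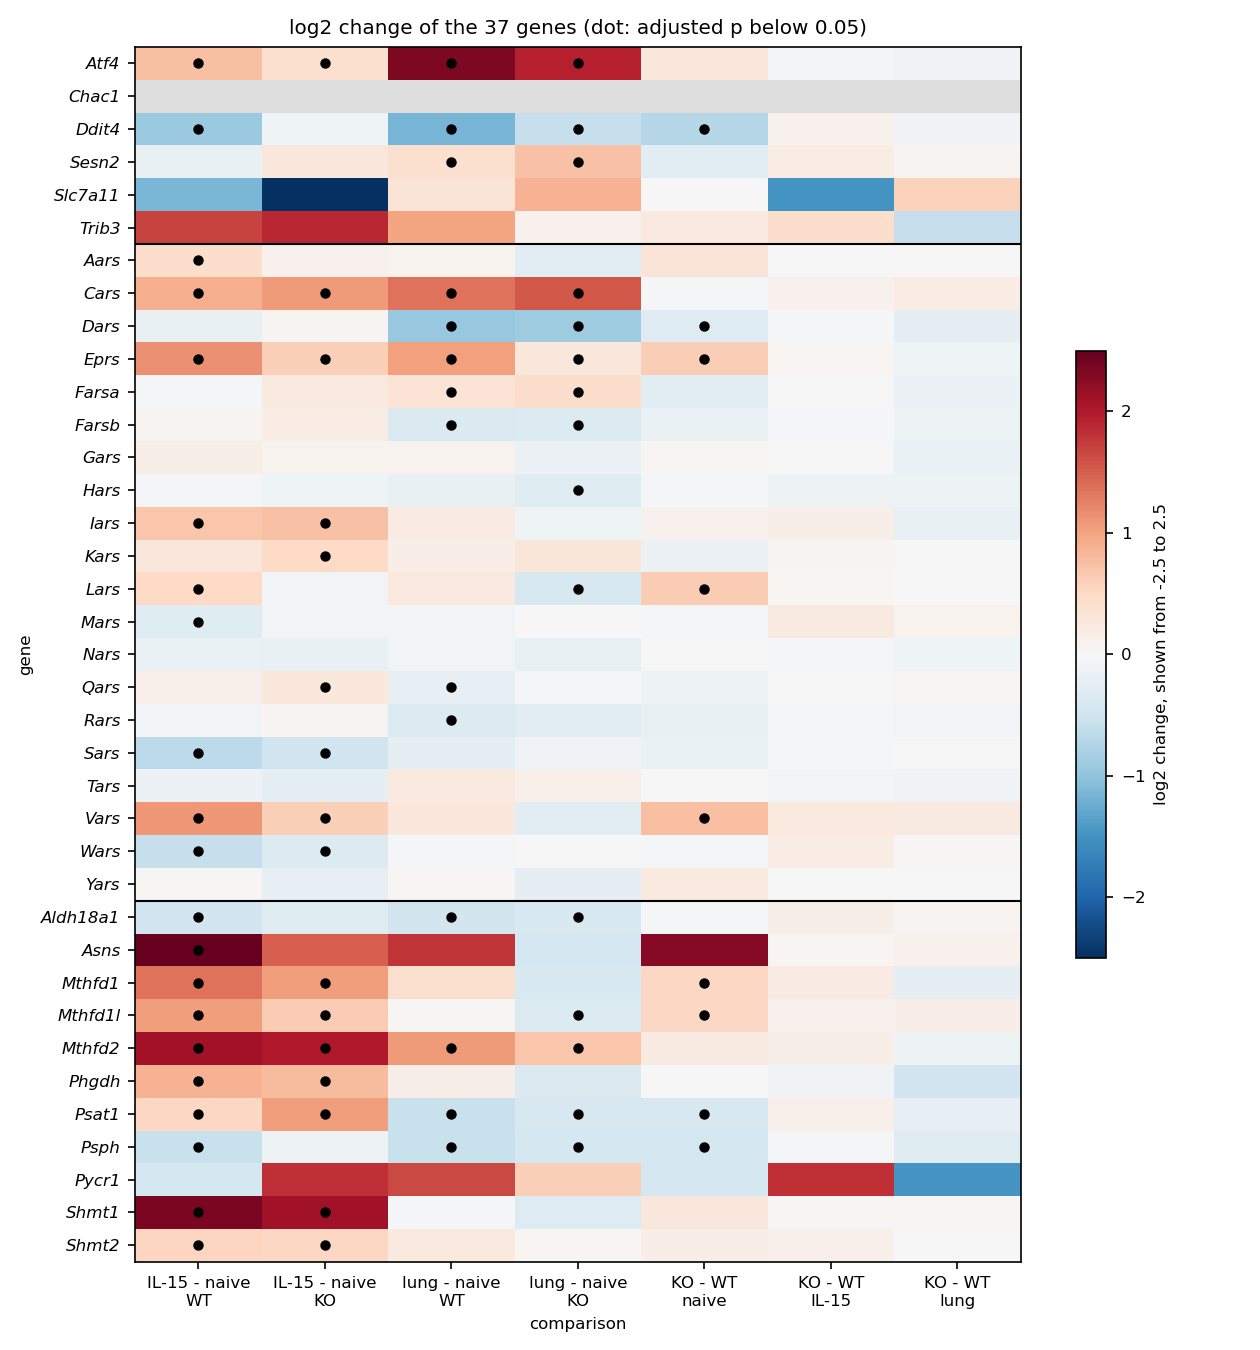
Log2 change of the 37 genes (rows, by role from the ATF4 group at the top through synthetases to synthesis enzymes) in 7 comparisons (columns), with red higher and blue lower and the colour cut at 2.5. Dots mark genes that passed, and Chac1, which was not tested, is grey. The columns of KO against WT under IL-15 and in lung hold no dot.

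Related genes, listed by function, give the surroundings of these changes. Their counts stand beside these shares of all genes tested: 29.2% higher and 20% lower in WT lung and 24.3 and 18.1% in KO lung, both against naive spleen, 26.4 and 26% under IL-15 in WT, 20.7 and 21% under IL-15 in KO, and 11.1 and 9.22% in naive KO. Of the 7 transcription factors that act beside Atf4 in the stress response, 5 were higher and 1 lower in WT lung than in naive spleen, with a median log2 change of 2.5, and the counts were the same in KO. Atf3 went from 1.81 ± 0.436 to 85.7 ± 12.0 CPM in WT, Cebpb from 7.16 ± 0.884 to 148 ± 21.3 CPM, and Ddit3, which encodes CHOP, from 15.3 ± 3.51 to 87.1 ± 31.1 CPM. The macrophage markers moved in the same direction, and their part in these values was not tested. Under IL-15 only 1 of 6 tested rose in WT and 3 fell, Cebpg by 0.51, Atf5 by 0.50 and Jdp2 by 0.45. The largest change upward in this list was 1.16 in WT. In KO under IL-15, 1 rose, by 2.13, and 1 fell. Of the 10 eIF2α kinases, phosphatase subunits and GCN regulators, 3 were higher and 3 lower in KO lung, and 5 were higher and 1 lower in WT lung. Ppp1r15a, the GADD34 subunit that leads to eIF2α dephosphorylation, went from 14.0 ± 5.54 to 550 ± 41.2 CPM (5.29 ± 0.21), and Impact, a GCN2 inhibitor, rose by 1.89. Under IL-15 the same list had 5 higher and 1 lower in WT, with Eif2ak2 up by 1.40, Eif2ak3 by 1.37 and Eif2ak4 by 1.10, and 3 higher and 3 lower in KO. In naive KO 4 of the 10 were higher than in WT, led by Gcn1l1 (1.00 ± 0.20), Eif2ak3 (0.87) and Ppp1r15a (0.98), and 1 was lower.

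Other genes reported as ATF4 targets (15 of 18 tested) had 4 higher and 3 lower under IL-15 in each genotype, near the shares of all genes (26.4 and 26% in WT, 20.7 and 21% in KO), and, against naive spleen, 6 higher and 0 lower in WT lung and 3 and 0 in KO lung (all genes 29.2 and 20%, and 24.3 and 18.1%). The large neutral amino acid transporter Slc7a5 rose under IL-15 from 7.53 ± 4.20 to 44.3 ± 4.09 CPM in WT (2.47 ± 0.24), while its partner chain Slc3a2 fell from 126 ± 2.82 to 71.1 ± 6.04 CPM (−0.91). In WT lung Slc3a2 stood at 314 ± 36.5 CPM (1.32 ± 0.10 against naive). In naive KO 3 were higher than in WT, the cationic transporter Slc7a1 (0.86), Slc7a5 (1.07) and the glutamine transporter Slc1a5 (0.66), and none was lower. Among the 17 mitochondrial synthetases, 5 rose, near the 26.4% of all genes, and 1 fell under IL-15 in WT, led by Sars2 (1.35), and Vars2 was the only one that passed in naive KO (0.91 ± 0.17). Of the 3 scaffolds of the multi-synthetase complex, none passed under IL-15 in WT, and Aimp2 passed in KO (0.40, adjusted p 0.0436). Other enzymes of folate, proline and aspartate metabolism (16 of 18 tested) split into 5 higher and 5 lower under IL-15 in WT, with thymidylate synthase Tyms up by 2.08 and glutamine synthetase Glul down to 116 ± 11.5 from 247 ± 7.44 CPM.

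Some of the 37 genes share exon bases with a gene on the opposite strand: Shmt1 with Smcr8, Hars with Hars2, Mars with Ddit3, Farsb with Sgpp2, Shmt2 with Ndufa4l2 and Yars with C77080. Use of strand in counting is not stated in the sources used here, so reads from such overlaps cannot be told apart. Smcr8 did not pass under IL-15 in WT (0.32 ± 0.17), where Shmt1 rose. Vars overlaps D17H6S56E-5 in span but not in exons, and D17H6S56E-5 rose under IL-15 in WT (1.28 ± 0.12) and stood at −0.03 ± 0.12 in naive KO against WT.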

How the data were processed

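Poly(A) RNA of mouse NK cells was sequenced in 24 libraries. The submitters' processing notes name RSEM 1.2.30, STAR 2.5.2a, cutadapt 1.9 and the GRCm38 build, without settings. The values are expected counts per gene, as deposited, of which 5.47% were not whole. After rounding, edgeR 4.0.16 was run in R 4.3.3 (filterByExpr, TMM scaling, quasi-likelihood F test, Benjamini-Hochberg adjustment over all genes tested, threshold 0.05). The 16 spleen libraries were fitted together for comparisons within spleen, the 8 lung libraries for KO against WT in lung, and all 24 for lung against spleen. In all, 11 comparisons were made. The standard error of a log2 change is its size over the square root of F. CPM levels use TMM-scaled totals, and levels per kilobase use GENCODE M21 principal transcripts. The test was checked on simulated data. Alternatives were DESeq2 1.42.0, its size factors, voom with library weights in limma 3.58.1, other filters, other sets of libraries in the fit, replicate blocks, an offset for length and GC content, fits free of mitochondrial genes and leaving out libraries. The genes and lists were chosen with earlier results of these data known. Named genes were, in each comparison, up to 8 genes that passed each way, every one that passed for KO under IL-15, in lung or in an interaction, the ends of the level order, and up to 3 per related list by smallest p, of which part is printed. Not every promoter stretch with a match is reported here.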

Additional observations from a re-analysis of the deposited data

Results flagged for a closer look

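Among 221 sets of 4 libraries (each gene in each group), 13 held a library apart from the other 3 by Dixon's criterion, where chance gives about 1 in 20. KO naive replicate 1, a shallow library, was apart for Aars (179.8 CPM, others 97.9 to 110), Kars (58.42, others 98.1 to 104) and Yars (92.26, others 58.1 to 62.1). WT lung replicate 1, the other shallow library, was apart for Sars (241.9 CPM, others 164 to 171), Mars (67.59) and Chac1 (0.1175 CPM, or 1 count, others at 0). KO IL-15 replicate 1 was high for Vars (454.0 CPM, others 356 to 358) and Mars (68.93). The other such values were Lars in WT naive replicate 1 (58.2 CPM), Psph in KO IL-15 replicate 3 (22.28 CPM), Aldh18a1 in KO lung replicate 3 (51.0 CPM), Pycr1 in KO lung replicate 4 (0.5416 CPM) and Slc7a11 in WT IL-15 replicate 2 (1.469 CPM).

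The KO effect on Eprs differed between lung and naive spleen by −0.742 on the log2 scale in the test of the difference itself (adjusted p 0.0185 in edgeR).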

How the results depend on the processing

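Calls that passed in every alternative run numbered 19 of 21 for IL-15 in WT, 12 of 16 in KO, 4 of 9 for naive KO, 9 of 14 and 7 of 15 for lung against naive in WT and KO, 14 of 22 and 15 of 27 for lung against IL-15, and 0 of 1 for the lung interaction. The 4 for naive KO were Ddit4, Lars, Mthfd1l and Vars. Counts that moved by over 1.5 times were as follows, and the cause was not tested. With the length and GC offset, 3 genes were higher in naive KO (from 5), 3 in lung against IL-15 in WT (from 6), 3 in KO (from 7), and 0 lower in the lung interaction (from 1). With the compared groups alone the counts were 1 lower in naive KO (from 4), 3 higher in lung against IL-15 in WT (from 6) and 0 lower in the lung interaction. For the IL-15 interaction (0 and 0), DESeq2 gave 1 higher and 2 lower, all 24 libraries in one fit 1 and 1, and voom with library weights 3 and 3. For the lung interaction, DESeq2 gave 4 lower. A replicate block by title number gave 2 lower there, and a block by library number left 1 lower gene for IL-15 in KO (from 2). No other count of genes here moved by over 1.5 times with the replicate block. Correlations of the deviations of same-numbered libraries ran from −0.19 to 0.247 by title number, where both ends were pairs of WT with KO. By library number they ran from −0.12 to 0.2. Not every library correlated best with its own number, so the numbers were not taken to pair them.

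Leaving out each library in turn gave ranges of 1 to 4 lower in naive KO, 0 to 1 higher and 0 to 2 lower for the IL-15 interaction, 5 to 11 lower for lung against naive in KO, 3 to 8 higher for lung against IL-15 in WT and 3 to 6 in KO, and 0 to 1 higher and 0 to 3 lower for the lung interaction. Changes that turned direction were Farsb (from −0.354 to 0.055), Rars (from −0.351 to 0.123) and Sesn2 (from 0.408 to −0.042) in WT lung against naive, all with the length and GC offset. Over all genes, counts for KO under IL-15, KO in lung and both interactions moved most: for KO in lung, 40 higher and 42 lower became 160 and 154 with DESeq2 and 251 and 197 without WT lung replicate 1. For the IL-15 interaction, 63 and 142 became 218 and 474 with DESeq2 and 0 and 0 with the library number block, for the lung interaction 24 and 140 became 92 and 428 with DESeq2, and for KO under IL-15 11 and 7 became 30 and 24 with voom. At the depth of these libraries Asns, Chac1, Pycr1, Slc7a11 and Trib3 rest on few counts.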
